A study of Mus musculus with 49 samples.

Results

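The genes described here were the ligands and receptors of the 4 classical axon guidance systems: the semaphorins with their plexin and neuropilin receptors, the ephrins with their Eph receptors, the Slits with their Robo receptors, and the netrins with their Unc5 receptors. Members were all protein-coding genes of the count table whose symbol began with Sema3 to Sema7, Plxn, Epha, Ephb, Efna or Efnb, or was Nrp1, Nrp2, Slit1 to Slit3, Robo1 to Robo4, Ntn1 to Ntn5 or Unc5a to Unc5d. The rule found 67 of the 52636 genes in the table: 20 semaphorins, 9 plexins, 2 neuropilins, 8 ephrins, 14 Eph receptors, 3 Slits, 4 Robo receptors, 3 netrins and 4 Unc5 receptors. Another 3 matching symbols were not protein-coding and were left out.

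Guidance ligands are secreted or membrane-bound proteins that growth cones read as attraction or repulsion. Semaphorins signal through plexins, with neuropilins as the co-receptors for most secreted class 3 semaphorins. Ephrins are membrane-bound and signal to Eph receptor tyrosine kinases on contact, and can also signal back into the cell that carries them. Slits repel axons through Robo receptors, and netrins repel them through Unc5 receptors and attract them through Dcc. In the striatum several of these genes stay expressed after development, when they are known for roles in synapses.

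RNA was sequenced from D1- and D2-dopamine receptor medium spiny neurons (D1- and D2-MSNs), the principal neurons of the nucleus accumbens (NAc), of C57BL/6J mice, and each library came from 1 mouse. Whole cell-FACS (8 D1, 6 D2 libraries used) sorted cells from fresh, papain-digested tissue of mice heterozygous for a cytoplasmic fluorophore under the Drd1 or the Drd2 promoter. Nuclear-FACS (6 D1, 5 D2) sorted nuclei from frozen tissue of Drd1-cre or Drd2-cre mice carrying Thy1-loxPSTOPloxP-EGFP-F. RiboTag (6 D1 and 6 D2 labelled male, 5 D1 and 5 D2 labelled female) precipitated an HA-tagged ribosomal subunit from fresh tissue of Drd1-cre or Drd2-cre mice carrying Rpl22-loxPexon4loxP-exon4-HA. The whole cell and nuclear libraries were all labelled male, and the animals' ages were not given in the sources used here. The 2 Cre lines define cells by promoter activity, so other Drd1- or Drd2-expressing cells of the NAc could enter each group.

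Total counts were 10476223 to 27965357 per library for whole cell-FACS, 3701255 to 68777008 for nuclear-FACS and 24076888 to 45641342 for RiboTag. The 10 most abundant genes held 84.9 to 88.3% of the counts of each RiboTag library, 20.3 to 66.9% in nuclear D1 and 5.23 to 13.9% in nuclear D2 libraries. All 5 D1 and all 5 D2 neuron markers differed in the labelled direction in whole cell-FACS and in both RiboTag comparisons. In nuclear-FACS, Drd1 was lower (log2 fold change -1.78) and Drd2 higher (1.72) in D2 libraries, while the D2 neuron marker Penk was lower and the other D1 and D2 markers tested did not pass. Drd2 was no longer called in nuclear-FACS without the FPKM filter described below (0.54, adjusted p = 0.194), where Adora2a, Penk and Gpr6 were called lower in D2, and so were all 6 markers of medium spiny neurons. In 6 of the 12 RiboTag libraries labelled male (4 D1, 2 D2), Xist exceeded the summed counts of 4 Y-linked genes, as it did in all 10 labelled female. On that measure the sex label of those 6 libraries does not match their counts. The 6 were not alike. The Y-linked sum was 1.78 CPM in male D2 number 6, 0.743 in D1 number 4 and 0.575 in D1 number 1. It was 0.0348 in male D1 number 2, 0.218 in D1 number 3 and 0.0831 in D2 number 2, against at most 0.246 in labelled female libraries. Below, the male D1-D2 values of Plxna1, Plxnd1, Ephb6, Efnb3, Unc5d, Sema3e and Nrp2 are also given without those 6 libraries. Counts of called members are given without them for some comparisons, and other values that use them only with them. A per-base rate of counts over olfactory and vomeronasal receptor genes, which are near silent in brain, was used as a measure of counts spread evenly over the genome. It equalled a median of 10.9% of the members' counts in nuclear D1 libraries, 43.5% in nuclear D2, 40.5% in whole cell D1, 34.4% in whole cell D2 and 0.72 to 0.854% in the 4 RiboTag groups.

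These genes were long, which matters because the deposited counts covered whole gene bodies. The median span from gene start to end was 46307 bases for the 67 members and 17480 bases for the 21819 protein-coding genes, and 31 members (46.3%) spanned at least 100 kb against 2486 protein-coding genes (11.4%). Spans ran from 4639 bases for Efna4, a membrane-anchored ephrin, to 952049 bases for the receptor Epha6. The count step of the deposited table ignored strand and counted a fragment for each gene it overlapped. Of the members, 39 were overlapped by another gene, 28 of them by one on the opposite strand and 5 by a protein-coding gene, and reads of such pairs cannot be told apart.

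Levels per gene span were given as FPKM (fragments per kilobase of gene span, divided by a library size scaled within each method), and levels were ordered within a method only. Efnb3, a transmembrane ephrin, had the highest mean level of the 67 members in all 4 sets, at 1.54 ± 0.815 FPKM (SD, n = 11) in nuclear-FACS, 3.59 ± 1.59 (n = 14) in whole cell-FACS, 0.983 ± 0.185 (n = 12) in RiboTag male and 1.10 ± 0.150 (n = 10) in RiboTag female libraries. In nuclear-FACS its spread covered the next members in the order, Ephb6 at 1.15 and Efnb2 at 1.02 FPKM. In RiboTag male libraries Sema6b (0.533) and Efnb2 (0.467) followed and lay outside its spread. Sema6b encodes a membrane-bound semaphorin and Efnb2 a transmembrane ephrin. The ephrins Efnb2 and Efnb3, the receptors Epha4 and Ephb6, the plexin Plxna2 and the semaphorin Sema6b were among the 10 highest members in all 4 sets. Per summed exon length the order changed, and Epha4, Epha6, Plxna4, Robo1 and Slit3 were the 5 shared members among the highest 10. Efnb3 then ranked 41 of 67 in nuclear-FACS. The median member stood at 0.422 FPKM in nuclear-FACS, 0.476 in whole cell-FACS, 0.0247 in RiboTag male and 0.0296 in RiboTag female libraries.

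**Figure D1:**
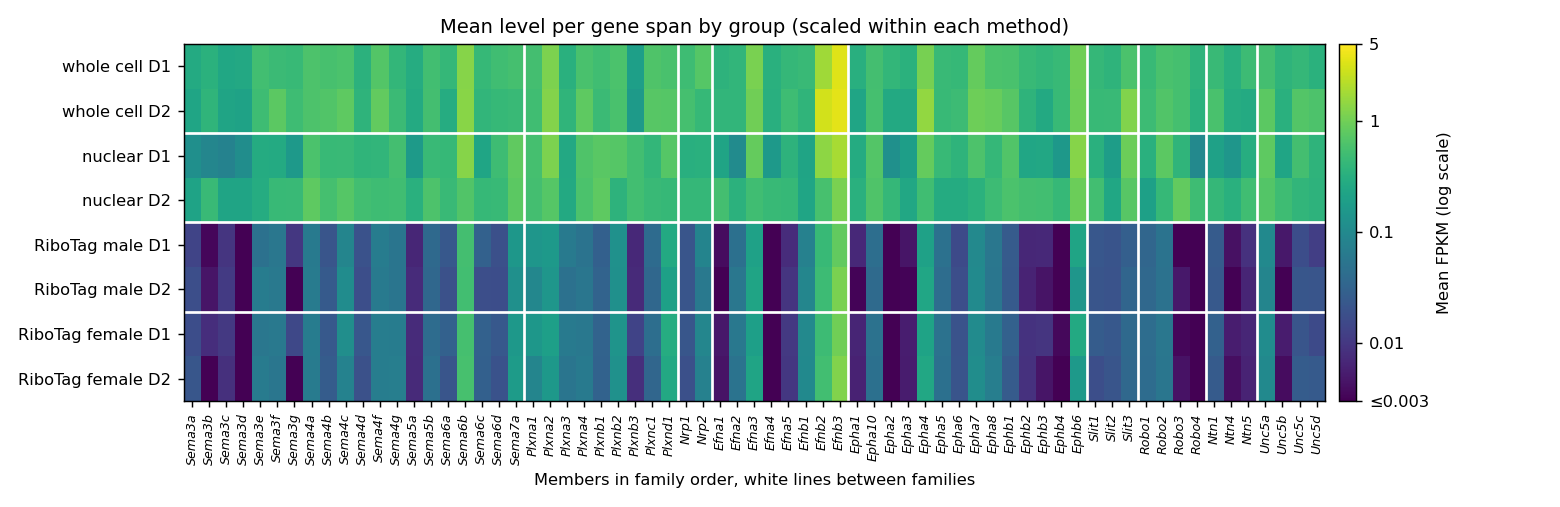
Mean level of each of the 67 members (columns, grouped by family) in each of the 8 groups (rows), coloured by FPKM over the gene span on a log scale, with colours ending at 0.003 and 5 FPKM. Efnb3 is the brightest member in every group. The RiboTag rows are darker, with medians of 0.0247 and 0.0296 FPKM against 0.422 and 0.476 in the nuclear and whole cell libraries.

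Whether D1- and D2-MSNs differ in these genes was tested within each method, starting with RiboTag. A member was called where edgeR's quasi-likelihood test gave a Benjamini-Hochberg adjusted p of at most 0.05 over all genes tested and an absolute log2 fold change above 0.38, and positive values mean higher in D2-MSNs. Of the 15 members that passed the level filter in RiboTag male libraries (at least 0.1 FPKM in at least 2 libraries), 4 were called, 3 lower and 1 higher in D2, against 3.87% of all 6799 genes tested (2.57% lower, 1.29% higher). In RiboTag female libraries 2 of 16 were called, both lower in D2, against 2.6% of 7066 genes (1.61% lower, 0.991% higher). In bulk samples, fewer cells of a type and less RNA per cell cannot be told apart. CPM (a count relative to the library total) is the usual unit of edgeR. Member CPM values below were scaled by TMM (trimmed mean of M values) within the comparison. Summed marker levels and levels standing for 3 counts were plain CPM without TMM.

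Among the receptors for semaphorins, Plxna1 was higher in D1-MSNs. Plxna1 encodes a plexin that works with neuropilins to bind class 3 semaphorins. Its CPM was 5.55 to 8.63 (median 6.77) in the 6 RiboTag male D1 libraries and 3.98 to 5.46 (median 4.34) in the 6 D2 libraries, so the groups did not overlap. The mean fell from 7.01 ± 1.40 to 4.47 ± 0.536 CPM (SD, n = 6 each), a log2 fold change of -0.64 (SE 0.109, adjusted p = 0.000215). In RiboTag female libraries the D1 values were 8.23, 8.37, 5.54, 7.05 and 6.99 CPM and the D2 values 3.80, 5.52, 4.17, 3.64 and 3.81 CPM. The lowest D1 and the highest D2 library lay next to each other without overlap, and the log2 fold change was -0.80 (SE 0.118, adjusted p = 0.000171). Plxna1 stayed called in each of the 12 male and 10 female fits that left out 1 library. It lies on chromosome 6 at 89316314 to 89362620 (GRCm38, minus strand), and 2 genes overlap it on the opposite strand.

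Plxnd1, the plexin that binds Sema3e directly, was called lower in D2 in the male libraries. Its CPM was 8.84 to 14.7 (median 10.3) in D1 and 6.60 to 10.2 (median 8.60) in D2, with overlapping groups, and the log2 fold change was -0.39 (SE 0.107, adjusted p = 0.023). The call was lost without D1 number 1 (-0.32), D1 number 6 (-0.30), D2 number 1 (-0.32) or D2 number 2 (-0.37). In female libraries the D1 values were 12.5, 12.3, 13, 11.1 and 13.2 CPM and the D2 values 9.53, 12.1, 12.1, 10.8 and 9.54 CPM. The female log2 fold change was -0.20 (SE 0.0765, adjusted p = 0.167). Female and male differences were not shown to differ (difference 0.18, SE 0.150, adjusted p = 0.845). Plxna2, a receptor for class 6 as well as class 3 semaphorins, had adjusted p = 0.000407 in female libraries but missed the fold threshold at -0.37, with 36.5 to 43.7 CPM in D1 and 28.9 to 33.5 CPM in D2. Its male value was -0.16 (adjusted p = 0.114).

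In the ephrin system, a receptor and a ligand moved in opposite directions. Ephb6, an Eph receptor that lacks kinase activity, had 2.62 to 4.59 CPM (median 3.5) in male D1 and 1.84 to 3.24 CPM (median 2.10) in male D2 libraries. The groups overlapped, and the log2 fold change was -0.65 (SE 0.135, adjusted p = 0.00214). In female libraries Ephb6 had 3.20, 3.91, 4.78, 4.32 and 4.97 CPM in D1 against 2.79, 2.09, 2.48, 2.54 and 2.72 CPM in D2, without overlap. The female log2 fold change was -0.75 (SE 0.119, adjusted p = 0.000352), and Ephb6 was called in each fit that left out 1 library of either sex label. Efnb3 was higher in D2 in the male libraries, at 4.5 to 6.35 CPM (median 5.29) in D1 and 5.87 to 7.93 CPM (median 7.02) in D2. Its log2 fold change was 0.39 (SE 0.0887, adjusted p = 0.00511), just past the threshold, and the call was lost without D1 number 1 (0.35), D1 number 6 (0.34), D2 number 2 (0.35), D2 number 4 (0.34) or D2 number 6 (0.37). In female libraries Efnb3 was at 6.25 ± 0.579 CPM in D1 and 7.58 ± 0.453 CPM in D2 (SD, n = 5 each) without overlap, and at 0.28 (adjusted p = 0.0386) it missed the fold threshold. Ephb6 (chromosome 6, 41605482 to 41620509, plus strand) and Efnb3 (chromosome 11, 69554092 to 69560205, minus strand) are overlapped by no other gene, and neither is Plxnd1 (chromosome 6, 115954811 to 115995005, minus strand).

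Epha4, a receptor for ephrins of both classes and the Eph receptor with the highest RiboTag level, showed a small difference with little spread. Its male values were 30.6 to 32.8 CPM in D1 and 32.7 to 38.1 CPM in D2, a log2 fold change of 0.22 (SE 0.0458, adjusted p = 0.00196). Its female value was 0.21 (SE 0.0484, adjusted p = 0.0151), with 32.1 to 35.5 CPM in D1 and 37.5 to 40.7 CPM in D2. Both lay below the fold threshold. Efnb2, with 18.9 to 23.6 CPM in male D2 and 19.0 to 21.9 CPM in male D1 libraries, did not pass (0.11, adjusted p = 0.286), nor did Sema6b (-0.05, adjusted p = 0.769).

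**Figure D2:**
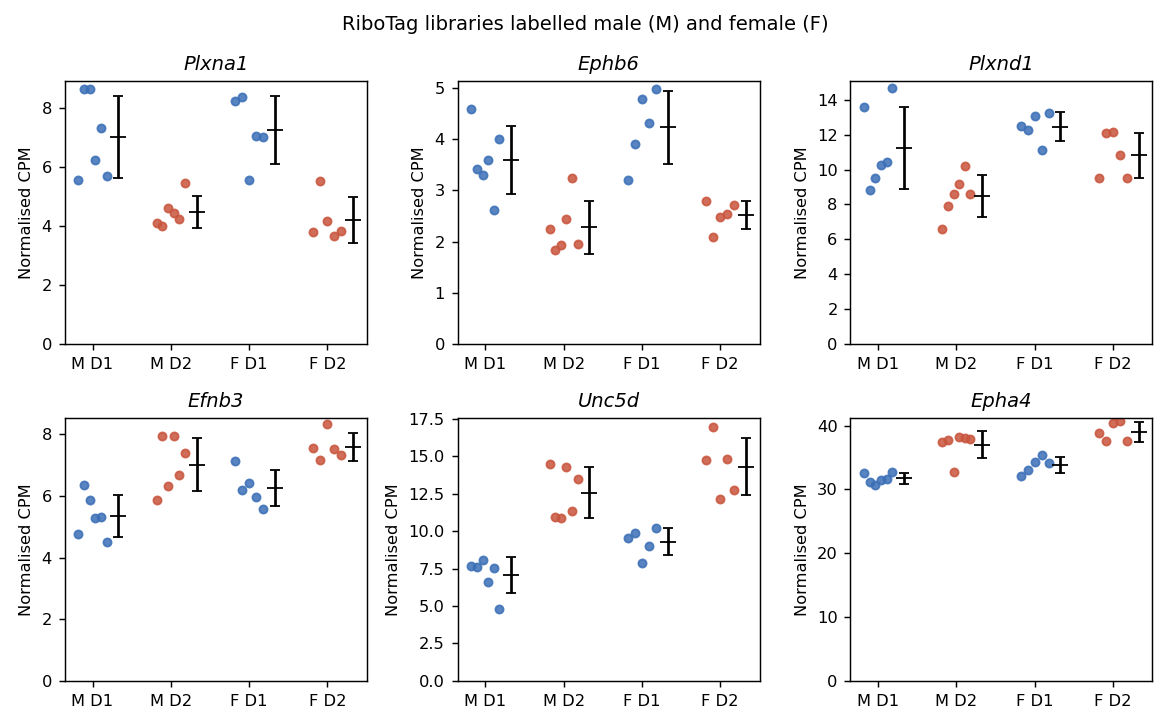
Normalised CPM of 6 members in each RiboTag library (points) by labelled sex and MSN type, with a dash beside each group for the mean and error bars for the SD. Plxna1 and Ephb6 are lower in D2 under both sex labels, and Unc5d is higher in D2 without overlap of the groups.

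The 250 bases before the RefSeq start are shown for Ephb6 and Plxnd1, the called RiboTag members for which a RefSeq promoter sequence (GRCm38.p6) was at hand, written 5' to 3' on the gene's strand. Capitals mark the GC box GGGCGG on either strand. The Ephb6 window is chr6:41605261-41605510 (plus strand) and the Plxnd1 window chr6:115995006-115995255 (minus strand). The last bases of the Ephb6 window lie inside the gene as GENCODE M21 places it.
Ephb6: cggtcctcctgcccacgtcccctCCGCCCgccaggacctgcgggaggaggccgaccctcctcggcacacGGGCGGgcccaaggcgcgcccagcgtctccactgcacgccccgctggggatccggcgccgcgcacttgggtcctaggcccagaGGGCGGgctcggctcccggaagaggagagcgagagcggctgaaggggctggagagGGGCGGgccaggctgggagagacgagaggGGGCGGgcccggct
Plxnd1: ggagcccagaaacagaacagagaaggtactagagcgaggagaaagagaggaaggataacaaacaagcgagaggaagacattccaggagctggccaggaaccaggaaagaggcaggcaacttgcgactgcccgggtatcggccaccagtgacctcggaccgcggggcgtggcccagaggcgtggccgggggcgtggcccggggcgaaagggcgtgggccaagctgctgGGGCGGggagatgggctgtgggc
The Ephb6 window held 5 GC boxes and had a GC content of 76.8%, and the Plxnd1 window held 1 GC box at 64.8%. A GC box was found in 52 of the 74 promoters of the 58 members with a sequence (70.3%) and in 32.7% of all 32851 promoters. The cyclic AMP response element TGACGTCA was in 1 member promoter (1.35%) and 1.55% of all, the E-box CACGTG in 4 (5.41%) and 6.02%, and the TATA box TATAAA in 2 (2.70%) and 12.4%. None of these 3 was in the Ephb6 or Plxnd1 window, which says only that the letters are not there.

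The level filter divides by gene span, and so removed long members that had counts. Of the 67 members, 48 passed more than 1 CPM before scaling in at least 2 RiboTag male libraries and 15 of these also passed the FPKM filter, with 50 and 16 in the female libraries. Without the FPKM filter 8 of 48 members were called in male libraries (3 higher, 5 lower), against 4.48% of 10724 genes (1.38% higher, 3.1% lower), and 4 of 50 in female libraries (1 higher, 3 lower), against 2.53% of 11039 genes (0.933% higher, 1.59% lower). The members described in the next 3 paragraphs were chosen after their values were seen.

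Unc5d, a netrin receptor gene of 572920 bases on chromosome 8 (28646717 to 29219636, minus strand), had the largest absolute change of the 48 members in RiboTag male libraries. Its span is overlapped by 3 genes on the same strand, none protein-coding, whose reads cannot be told apart from its own. Its male D1 libraries had 4.79 to 8.10 CPM (median 7.57) and its D2 libraries 10.9 to 14.5 CPM (median 12.4), without overlap. The mean rose from 7.06 ± 1.21 to 12.6 ± 1.70 CPM (SD, n = 6 each), a log2 fold change of 0.83 (SE 0.0976, adjusted p = 2.32e-06). The female D1 libraries had 9.57, 9.88, 7.88, 9.02 and 10.2 CPM and the D2 libraries 14.8, 17, 12.2, 14.8 and 12.7 CPM, again without overlap. The female log2 fold change was 0.63 (SE 0.0883, adjusted p = 0.000236). Unc5d was called in all 12 male fits without 1 library (0.75 to 0.87) and in all 10 female ones (0.57 to 0.68). Its mean level over the span was 0.0119 FPKM in male D1 and 0.0213 FPKM in male D2 libraries, below the filter. Its relative Unc5c, also a netrin receptor, was at 6.16 to 7.73 CPM in male D1 and 7.71 to 8.78 CPM in male D2 libraries, a log2 fold change of 0.33 (adjusted p = 0.00178) below the fold threshold. Unc5a did not pass (-0.19, adjusted p = 0.178), and Unc5b was below the count filter.

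Among semaphorin ligands and their co-receptors, Sema3e and Nrp2 were called in the male libraries and not in the female ones. Other genes overlap both, 3 for Sema3e and 2 for Nrp2. Sema3e, the secreted ligand of Plxnd1, had 8.55 to 14.2 CPM (median 11.0) in male D1 and 11.7 to 19.3 CPM (median 16.1) in male D2 libraries. Its log2 fold change was 0.45 (SE 0.108, adjusted p = 0.00769) in male and 0.19 (SE 0.0797, adjusted p = 0.272) in female libraries. Nrp2, the neuropilin that binds Sema3f, had 8.07 to 12.2 CPM in male D1 and 6.28 to 8.23 CPM in male D2 libraries. Its log2 fold change was -0.50 (SE 0.0926, adjusted p = 0.000764) in male and -0.24 (SE 0.145, adjusted p = 0.515) in female libraries. Whether the labelled sexes differ for Sema3e was not tested, because it did not pass the filter of that fit, and for Nrp2 the difference was 0.25 (SE 0.181, adjusted p = 0.82). Nrp1, the partner neuropilin, was at 2.52 to 3.62 CPM in male D1 and 2.84 to 3.36 CPM in male D2 libraries and did not pass (-0.02, adjusted p = 0.927). Sema3a, the repellent read by Nrp1, did not overlap between male groups (6.00 to 8.08 against 8.12 to 9.22 CPM), with a log2 fold change of 0.35 (adjusted p = 0.00443) below the threshold.

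The remaining calls rested on few counts or on 1 labelled sex. Epha3, an Eph receptor for A-class ephrins, was lower in male D2 libraries (1.49 ± 0.298 against 1.06 ± 0.120 CPM, SD, n = 6 each; log2 fold change -0.50, adjusted p = 0.0377), and stayed called in 4 of the 12 fits without 1 library. Slit1, a ligand of the Robo receptors, was lower in female D2 libraries, at 3.20, 4.62, 4.13, 3.41 and 3.94 CPM in D1 against 2.34, 2.81, 3.28, 2.07 and 2.46 CPM in D2. Its log2 fold change was -0.56 (SE 0.129, adjusted p = 0.0195), it stayed called in 7 of 10 fits without 1 library, and its male value was -0.09 (adjusted p = 0.707). Robo1 (0.10, adjusted p = 0.361) and Robo2 (-0.04, adjusted p = 0.831), the Slit receptors with the highest counts, did not pass in male libraries.

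**Figure D3:**
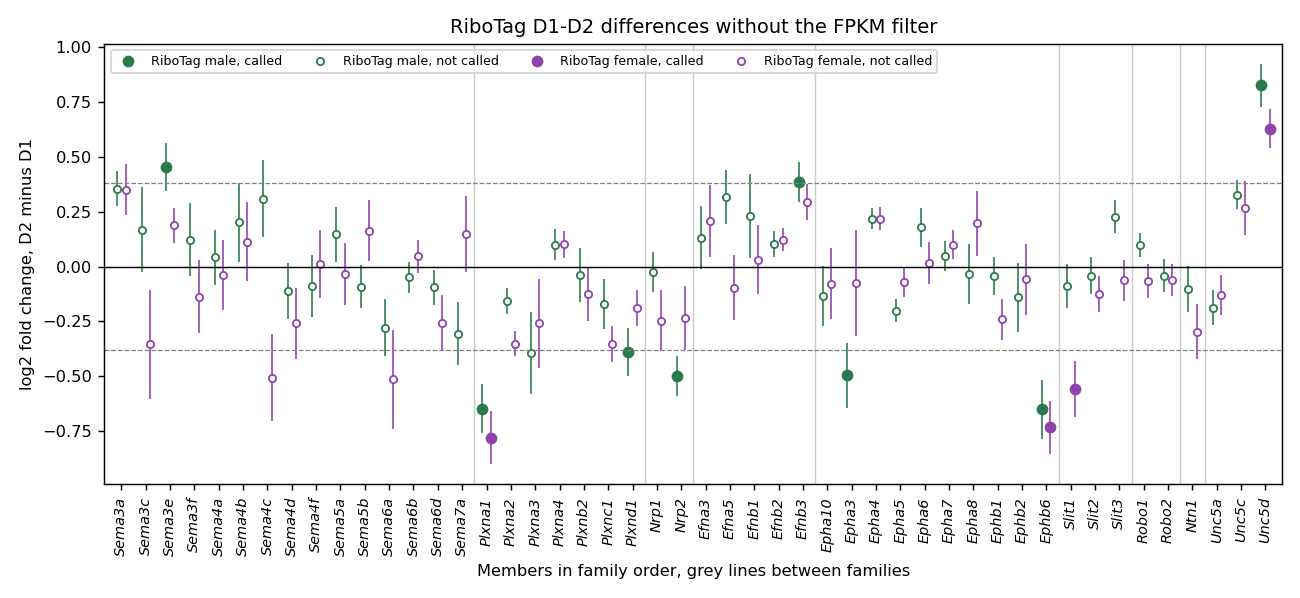
log2 fold change (D2 minus D1) of the 48 members tested in both RiboTag comparisons without the FPKM filter, in family order, with error bars for the SE, filled points for called members and dashed lines at plus and minus 0.38. Unc5d stands highest and Plxna1 and Ephb6 lowest under both sex labels.

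Leaving out the 6 male-labelled RiboTag libraries with the unmatched sex label left 2 D1 and 4 D2 libraries. With the FPKM filter, Plxna1 (-0.58) and Plxnd1 (-0.53) were then called, while Ephb6 was at -0.43 (adjusted p = 0.308) and Efnb3 at 0.45 (adjusted p = 0.066). Without the FPKM filter 4 of 47 members were called (2 higher, 2 lower), against 3.91% of 10270 genes. Unc5d (1.02, adjusted p = 0.00036) and Sema3e (0.69) were among these members, and Nrp2 was at -0.24 (adjusted p = 0.33). Markers of other cells also moved with the RiboTag groups. The summed level of 4 cholinergic interneuron markers was 0.927 to 1.83 CPM in male D1 and 5.72 to 7.79 CPM in male D2 libraries, with 1.28 to 2.34 and 3.42 to 9.79 CPM in the female ones. The sum of 6 GABA interneuron markers was 14.7 to 18 CPM in male D1 and 5.86 to 14.1 CPM in male D2 libraries. Endothelial markers summed to at most 4.59 CPM and astrocyte markers to at most 6.20 CPM in any RiboTag library. Their part in the members' differences was not tested.

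In whole cell-FACS none of the 14 members that passed the filter (at least 1 FPKM in at least 1 library) was called by edgeR, against 1.5% of 16748 genes. At an unadjusted p under 0.05 edgeR had 3 members, and DESeq2 called 4, Efnb2, Epha4, Slit3 and Unc5c, all higher in D2. Slit3 and Unc5c passed the filter through D2 libraries alone, and no share of all genes is given for the DESeq2 calls. On simulated counts 26.5% of the calls by DESeq2 in this comparison were false, against 10.4% by edgeR. The simulated libraries all shared 1 mean profile, so those values do not say how many calls were false here. Efnb2 had 100 to 193 CPM (median 144) in the 8 D1 and 175 to 284 CPM (median 193) in the 6 D2 libraries, a log2 fold change of 0.53 (SE 0.164, adjusted p = 0.104 by edgeR). Slit3, a secreted Slit, had 736 ± 192 CPM in D1 (SD, n = 8) and 1219 ± 483 CPM in D2 (SD, n = 6), at 0.73 (adjusted p = 0.14), and Unc5c was at 0.45 (adjusted p = 0.128). Edge cases followed single libraries, since Unc5c was called without D1 number 8, and Unc5c and Slit3 without D2 number 1. The count stayed at 0 without the libraries that had over 20% of their counts on 10 genes (up to 54.5% in D2). Without the FPKM filter edgeR called 0 of 67 members (9 at an unadjusted p under 0.05), against 0.102% of 34270 genes. Unc5d there had 249 to 675 CPM (median 358) in D1 and 462 to 860 CPM (median 548) in D2 libraries, which overlapped, at a log2 fold change of 0.87 (SE 0.196, adjusted p = 0.0892). Plxna1 (-0.11, adjusted p = 1) and Ephb6 (-0.05, adjusted p = 1) did not pass.

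In nuclear-FACS 4 of 14 members were called, all higher in D2, against 17.8% of 9860 genes (7.25% higher, 10.5% lower). They were Robo3, a divergent Robo receptor, the membrane-bound semaphorins Sema4c and Sema7a, and Plxnb1, a receptor for class 4 semaphorins. Robo3 had 9.14 to 34.5 CPM (median 12.7) in the 6 D1 libraries and 41.7, 43.6, 50.7, 52.6 and 85.9 CPM in the 5 D2 libraries, without overlap, a log2 fold change of 1.69 (SE 0.326, adjusted p = 0.00805). Sema4c had 4.5 to 14.4 CPM in D1 and 19.6, 19.0, 18.4, 26.0 and 43.6 CPM in D2, again without overlap, at 1.31 (adjusted p = 0.0168). Plxnb1 (0.73, adjusted p = 0.0328) and Sema7a (0.63, adjusted p = 0.0426) overlapped between groups. On the opposite strand, 1 gene overlaps Plxnb1 and 1 overlaps Sema4c, while no other gene overlaps Robo3 or Sema7a. Robo3, Sema4c and Plxnb1 reached 1 FPKM in D2 number 7 alone, and without that library no member was called and Robo3 and Sema4c were not tested.

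The direction of the nuclear differences depended on which genes set the scale. Without the FPKM filter 19 of 67 members were called, 4 higher and 15 lower in D2, against 24.8% of 33197 genes (5.43% higher, 19.4% lower). The log2 fold changes of the 9860 genes in both fits moved by a median of -1.13, and those of the 14 members by -1.14. Plxnb1 went to -0.30 (adjusted p = 0.265) and Sema7a to -0.44 (adjusted p = 0.206), on the other side of 0, and Robo3 to 0.77 (adjusted p = 0.0617). The 4 higher members were Robo4 (1.91), the Robo receptor of blood vessels, Sema3c (1.13), Ephb2 (0.81) and Sema3a (0.56), and the lower ones included Efnb2 (-1.63) and Epha4 (-1.11). The same libraries differed in evenly spread counts, which were 0.579 to 22.2% of all counts in D1 and 32.4 to 52.2% in D2 libraries. The summed level of 6 endothelial markers was 10.5 to 171 CPM in D1 and 210 to 345 CPM in D2 libraries, and that of 6 microglial markers 43.2 to 172 and 177 to 225 CPM. The 4 cholinergic interneuron markers summed to 7.66 to 29.3 and 45.1 to 70.9 CPM. The 6 GABA interneuron markers summed to 30.9 to 66.5 and 83.8 to 116 CPM. Neither sum overlapped between D1 and D2 libraries, but the sums were not scaled by TMM. In the TMM-scaled fit without the FPKM filter, median log2 fold changes were 1.21 (endothelial), -0.46 (microglial), 0.04 (cholinergic) and -0.23 (GABA interneuron). There Flt1 and Cdh5 were called higher in D2, and Csf1r, P2ry12, Sst and Npy lower. The direction of the microglial and interneuron sums thus depended on the scaling. The 5 D1 neuron markers summed to 35.4 to 57.0 CPM in D1 and 28.4 to 42.3 CPM in D2 libraries, and the 5 D2 neuron markers to 209 to 579 and 306 to 609 CPM. The part of these cell types in the nuclear differences was not tested. No share of all genes is given for the fit with the evenly spread counts subtracted (17.8% were called before). In that fit 4 of 16 members were called (3 higher, 1 lower). Robo3 (1.74, adjusted p = 0.00817) and Sema4c (1.26, adjusted p = 0.0251) were among them, as were Sema4a (1.08) and Efnb2 (-0.71), while Plxnb1 (0.66, adjusted p = 0.052) and Sema7a (0.52, adjusted p = 0.132) did not pass. That fit kept the filter of at least 1 FPKM in at least 1 library. Before subtraction, Robo3 and Sema4c passed it through D2 number 7 alone and Efnb2 through D1 libraries alone. Their calls here are therefore no separate support for a difference.

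**Figure D4:**
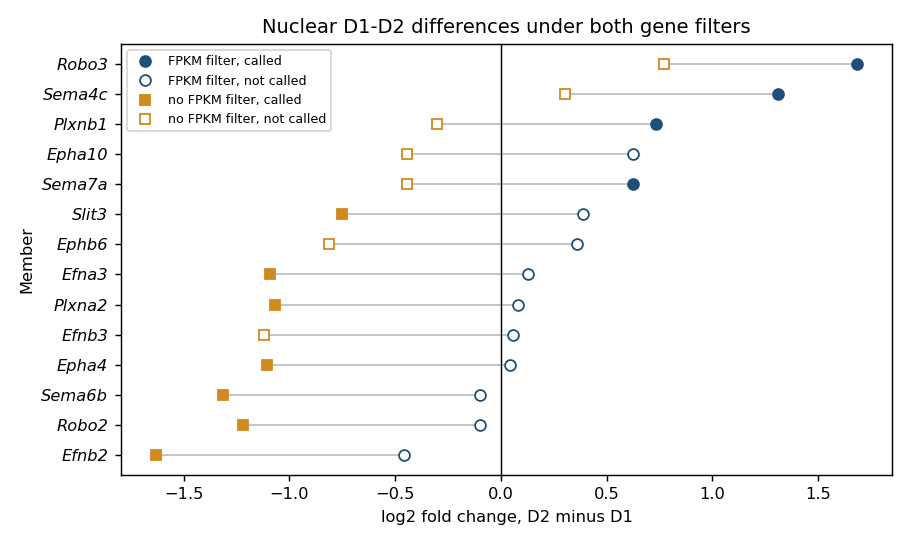
Nuclear log2 fold change (D2 minus D1) of the 14 members that passed the FPKM filter, with and without that filter, filled where called. All 14 lie further to the left without the filter, by a median of 1.14.

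The methods were compared in 1 fit over the 6 male groups, with all 67 members tested. In nuclear-FACS against whole cell-FACS, 28 members were called in D1-MSNs (26 higher in nuclei, 2 lower), against 17.2% of 36239 genes (11.5% higher, 5.78% lower), and 13 in D2-MSNs (8 higher, 5 lower), against 18.3% (4.45% higher, 13.8% lower). Relative to the median of protein-coding genes, 52 of 67 members lay above it in D1 and 40 in D2. All 9 plexins lay above it in D1 and 3 of 9 in D2. Plxnb3, a plexin, was highest in both, at log2 differences of 2.14 in D1 and 1.94 in D2, and Plxnb1 was at 1.28 and 1.10. Efnb2 was lowest in D2 (-1.99), followed by Efnb3 (-1.35) and Epha4 (-1.17), while Sema3b (-1.16) and Robo4 (-1.14) were lowest in D1. Summed oligodendrocyte markers were 399 to 826 CPM in nuclear D1 and 354 to 764 CPM in nuclear D2 libraries. In whole cell-FACS they were 154 to 217 CPM in D1 and 86.3 to 208 CPM in D2. Endothelial sums overlapped between these methods in D1 (10.5 to 171 against 81.6 to 357 CPM) and in D2 (210 to 345 against 70.5 to 215 CPM). The part of other cell types in the method differences was not tested.

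RiboTag male libraries against whole cell-FACS gave 54 called members in D1-MSNs (20 higher, 34 lower) and 49 in D2-MSNs (16 higher, 33 lower), against 77.5% and 75.5% of all genes, shares near those of the members (80.6% and 73.1%). Of all genes, 20.6% were higher and 56.9% lower in D1, and 20% and 55.6% in D2. The median of all genes was -2.38 in D1 and -2.30 in D2, and that of protein-coding genes -0.81 and -0.90. Plexins stood above the protein-coding median in 8 of 9 members in both MSN types, with family medians 1.61 and 1.43 above it, and ephrins had medians 1.64 and 1.82 above it with 5 of 8 members higher. As log2 differences before subtracting that median, Plxnd1 was at 2.52 in D1 and 1.84 in D2, Sema6b at 2.40 and 2.31, Plxna1 at 1.77 and 1.19, and Efnb3 at 1.62 and 1.92. Unc5d was at -1.17 and -1.25 on the same scale, below the protein-coding median (-0.36 and -0.35 relative to it) and above the median of all genes, so its direction depended on the reference. Without the 6 male-labelled libraries with the unmatched sex label, 35 members were called in D1 and 45 in D2. No share of all genes is given for that fit.

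Some members had few or no counts in RiboTag although whole cell-FACS had counts. Efna4 had 0 counts in all 12 RiboTag male libraries, where 3 counts over a group would be 0.0148 CPM in D1 and 0.0144 CPM in D2, against 15 to 39 counts per whole cell D1 and 0 to 110 per whole cell D2 library. Epha2 had 1 count in the 6 D1 and 0 in the 6 D2 RiboTag male libraries, against 60 to 344 per whole cell D1 and 1 to 346 per whole cell D2 library. Robo4 had 5 and 0 counts, against 32 to 129 per whole cell D1 and 0 to 137 per whole cell D2 library. Ephb4, the Eph receptor of veins, had 3 and 5 counts, against 110 to 321 and 87 to 520. The lowest whole cell D2 libraries of Efna4, Epha2 and Robo4 thus had as few counts as RiboTag libraries. Evenly spread counts alone were a median of 52.6% of those of Efna1, another ephrin with few RiboTag counts (8 and 3), in whole cell D1 libraries. Per kb of gene span, evenly spread counts were 1.99 to 4.41 in whole cell D1 libraries and 0.00484 to 0.012 in RiboTag male libraries. Spans were 4639 bases for Efna4, 13219 for Robo4, 28145 for Epha2 and 28561 for Ephb4. The whole cell counts of these members thus include such counts, and their part in the contrast with RiboTag was not tested.

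**Figure D5:**
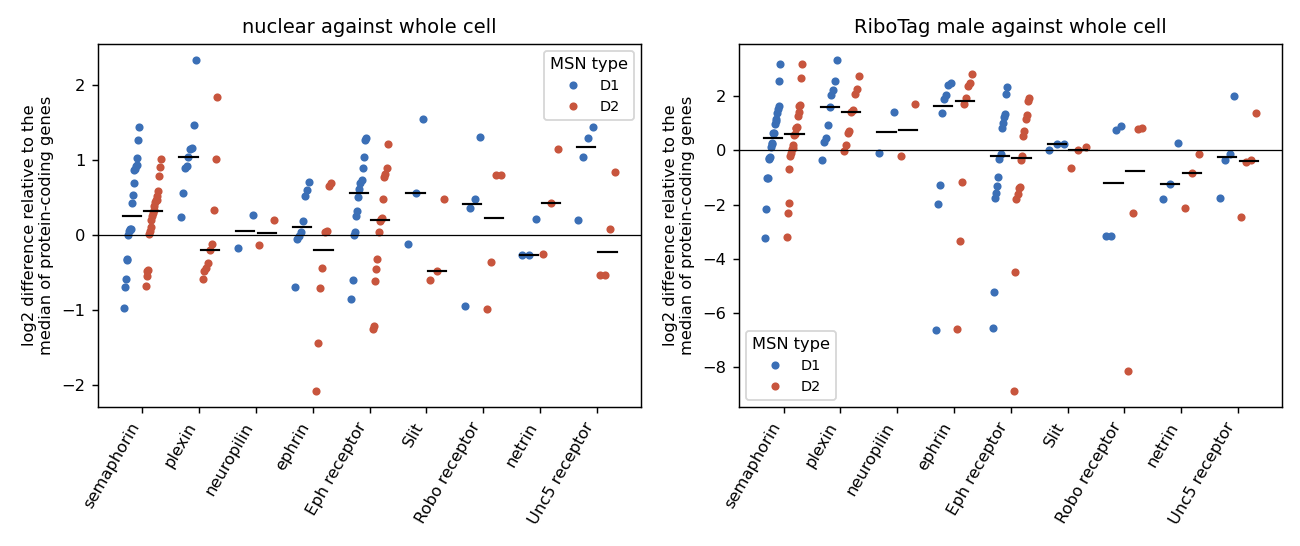
log2 difference of each member between nuclear-FACS (left) or RiboTag male (right) and whole cell-FACS, relative to the median of protein-coding genes, by family and MSN type, with black lines for family medians. The panels have different vertical scales, the plexins lie above 0 in 8 of 9 members in RiboTag, and the points lowest in the right panel are members with at most 5 RiboTag counts in a group.

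Whether the D1-D2 difference itself varied with the method was tested by interaction terms in the same fit. RiboTag and whole cell-FACS gave no member with a different D1-D2 change by edgeR (10 members at an unadjusted p under 0.05) or DESeq2, against 0.0993% of 36239 genes. For Unc5d this difference was -0.08 (SE 0.241, adjusted p = 1), for Plxna1 -0.58 (SE 0.270, adjusted p = 1) and for Ephb6 -0.63 (SE 0.382, adjusted p = 1). Nuclear-FACS against whole cell-FACS gave 22 members (3 higher, 19 lower), against 23.3% of all genes (6.66% higher, 16.7% lower). This fit used the CPM filter alone, the setting that moved nuclear log2 fold changes by a median of -1.13 and gave 4 higher and 15 lower members in place of 4 higher and 0 lower, so the direction of these differences depends on the scale. Nuclear-FACS against RiboTag gave 17 (2 higher, 15 lower), against 13.9% (1.35% higher, 12.6% lower), with 7 under DESeq2 size factors and 0 without the 6 male-labelled libraries with the unmatched sex label. Efnb2 differed by -2.40 from whole cell-FACS and -1.73 from RiboTag, Unc5c by -1.55 and -1.16, and Unc5d by -1.30 and -1.22. Medians over all genes were 0.48 and 0.24, and the nuclear libraries are shared by both contrasts.

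No member was called between the labelled sexes. Of the 16 members tested by edgeR in the RiboTag fit, 1 in D1-MSNs, 3 in D2-MSNs and 2 in the D1-D2 difference had an unadjusted p under 0.05, and all 7183 genes gave calls for 0%, 0.0696% and 0%. DESeq2 called 0 members in each, and so did edgeR without the 6 male-labelled libraries. Sema4c had the largest difference of D1-D2 changes, -0.83 (SE 0.254, adjusted p = 0.401), with a log2 fold change of -0.52 in female libraries. Since 6 of the male-labelled libraries did not match their sex label, these values do not bear on sex alone.

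Another 46 genes of the guidance pathways (Dcc, contactins, Nogo receptors and collapsin response mediators among them) were read from a separate list. With the FPKM filter, Cntn2, a cell adhesion gene of axons, was lower in D2 in both RiboTag comparisons (log2 fold changes of -0.64 and -0.51), as the only call of 14 genes tested in male and of 16 in female libraries, against 3.87% and 2.6% of all genes. Dscaml1, an adhesion gene of the Dscam family, was higher in nuclear D2 (0.62) as the only call of 18, against 17.8% of all genes, and edgeR called none of 19 in whole cell-FACS (2 at an unadjusted p under 0.05), against 1.5%. In nuclear-FACS 20 of 46 were called without the FPKM filter, against 24.8% of all genes. These were Vav3 higher and 19 lower, and Dscaml1 was at -0.47 (adjusted p = 0.0818). In the same setting 7 of 43 were called in RiboTag male (2 higher, 5 lower), against 4.48%, among them the netrin G gene Ntng2 (-1.74) and the Nogo receptor Rtn4r (-1.07), and 3 of 42 in RiboTag female libraries, all lower, against 2.53%.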

How the data were processed

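RNA was sequenced from D1- and D2-MSNs after whole cell-FACS, nuclear-FACS or RiboTag affinity purification. Raw fragment counts per gene were deposited. The authors aligned paired-end reads with HISAT2 2.0.5 to GRCm38 and counted with featureCounts over whole gene bodies of Ensembl release 90, ignoring strand, counting a fragment for each gene it overlapped and leaving out multiply aligned fragments. Intron reads therefore add to each value, and long genes collect more of them.

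The 49 columns were joined into 47 libraries by summing a repeat run of whole cell D1 number 1 and a second lane of whole cell D2 number 3. Both were identified by column name alone. The paper's whole cell sample numbers are reached only if these columns count as separate samples, and the paper describes each sample as 1 mouse. The labels give 8 D2 whole cell titles and 6 such libraries were used. Gene IDs were matched to GENCODE M21 (52403 of 52636). Genes needed more than 1 CPM in at least 2 libraries, then at least 1 FPKM in at least 1 library and at most 50000 in all (nuclear, whole cell) or at least 0.1 FPKM in at least 2 (RiboTag). FPKM used the gene span and DESeq2 size factors. Counts were tested with the quasi-likelihood test of edgeR 4.0.16 (R 4.3.3, TMM, Benjamini-Hochberg adjustment over all genes tested), with DESeq2 1.42.0 as an alternative, and SE is the log2 fold change over the square root of F. Method contrasts used 1 fit over the 6 male groups with the CPM filter alone, and sex contrasts 1 fit over the 4 RiboTag groups. Python 3.11.15 with pandas 2.3.3 made the tables and matplotlib 3.10.9 the figures. Evenly spread counts were estimated per base on olfactory and vomeronasal receptor genes and multiplied by gene span.

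On simulated counts for the same genes, edgeR recovered 50.5% (nuclear), 47.5% (whole cell) and 100% (each RiboTag comparison) of 200 genes changed by 1.5 on the log2 scale, among 9860, 16748, 6799 and 7066 genes, and 5.61%, 10.4%, 2.91% and 1.96% of its calls were false. For DESeq2 the false share was 18.7% (nuclear) and 26.5% (whole cell). For the interaction of nuclear and whole cell among 36239 genes, edgeR recovered 10% (0% of calls false) and DESeq2 19.5% (22% false). All simulated libraries shared 1 mean profile, without the differences in composition or evenly spread counts of the real libraries. The simulated shares therefore need not hold for the real comparisons.

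The members and lists were chosen with earlier results of these data known. Members called in at least 1 D1-D2 comparison were named with full statistics, for methods the members with the largest changes, and for levels the highest members. Groups came from the titles and each library from 1 mouse. Alternatives were DESeq2, its size factors in edgeR, no fold threshold, no FPKM filter, no count filter, summed exon length, subtracted background, the repeat run handled otherwise, a replicate block and leaving out libraries. Leaving out libraries with over 20% of counts on 10 genes (whole cell) or with the unmatched sex label (RiboTag) was chosen after seeing the data. The RefSeq promoter table held no entry for Plxna1, Unc5d or Efnb3.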

Additional observations from a re-analysis of the deposited data

Results flagged for a closer look

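Single libraries stood apart from their group in 7 of the 64 groups of values tested for the 8 members called in at least 1 D1-D2 comparison, where chance gives about 1 in 20. Robo3 accounted for 4 of the 7. Its CPM was 34.5 in nuclear D1 number 3, 85.9 in nuclear D2 number 7, 0.229 in RiboTag female D1 number 1 and 0.193 in RiboTag female D2 number 5, in each case the highest value of the group. The RiboTag values stand for few counts, since the female group means were 0.0623 and 0.0763 CPM. Plxna1 was at 5.52 CPM in RiboTag female D2 number 2, the highest of that group and next to the lowest D1 library. Sema4c was at 0.777 CPM in RiboTag female D1 number 6, the lowest of its group, and Sema7a at 4.41 CPM in RiboTag male D1 number 4.

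The D1-D2 difference varied with the method for several members by an interaction test (edgeR, Benjamini-Hochberg adjustment over all genes tested). The nuclear difference lay below that of whole cell-FACS by 1.37 on the log2 scale for Plxnd1 (log2 -1.37, SE 0.318) and by 1.19 for Efnb3 (log2 -1.19, SE 0.440), and for Efnb3 below that of RiboTag (log2 -1.49, SE 0.457). In all, 22 members differed between nuclear-FACS and whole cell-FACS and 17 between nuclear-FACS and RiboTag, where the 17 became 7 with DESeq2 size factors and 0 without the 6 male-labelled RiboTag libraries with the unmatched sex label. This fit used the CPM filter alone, a setting that moved nuclear log2 fold changes by a median of -1.13, about the size of these differences, so their direction depends on the scale. With the FPKM filter the Efnb3 log2 fold change was 0.06 (adjusted p = 0.901) in nuclear-FACS and -0.17 in whole cell-FACS. Evenly spread counts made up 0.579 to 22.2% of all counts in nuclear D1 and 32.4 to 52.2% in nuclear D2 libraries, and their part in these differences was not tested.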

How the results depend on the processing

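Of 174 alternative counts of called members, 149 stayed within 1.5 times of the reported one and 25 did not. Where no share of all genes is stated for a setting, its count is not a result about the members. In nuclear-FACS (4 reported) 19 were called without the FPKM filter, 22 with summed exon length and 0 with a replicate block, and 0 to 5 when 1 library was left out. Plxnb1 turned to -0.30 without the FPKM filter and -0.25 with summed exon length, and Sema7a to -0.44 and -0.39. The values of 9860 genes moved by a median of -1.13 without the FPKM filter. In whole cell-FACS (0 reported) DESeq2 called 4 and DESeq2 size factors in edgeR 1, with 0 to 2 when 1 library was left out. In RiboTag male (4 reported) 8 were called without the FPKM filter and 8 with summed exon length, settings that admit long genes, 2 without the libraries with the unmatched sex label (4 with both changes) and 2 to 5 when 1 library was left out. In RiboTag female (2 reported) 5 were called without the fold threshold, 4 without the FPKM filter, 4 with summed exon length and 2 to 3 when 1 library was left out. Nuclear-FACS against whole cell-FACS in D2 gave 23 by DESeq2 (13 reported), and RiboTag against whole cell-FACS in D1 gave 35 without the libraries with the unmatched sex label (54 reported). The nuclear against RiboTag interaction gave 7 with DESeq2 size factors and 0 without those libraries (17 reported). Unless named, the cause was not tested. For named members, 144 alternative values kept direction and side of the threshold, 35 kept direction only and 4 reversed.

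No comparison had a correlation over 0.1 in every pair of the same replicate number, so the numbers do not pair samples. The replicate block gave 0 members in nuclear-FACS, 0 in whole cell-FACS, 4 in RiboTag male and 3 in RiboTag female. Nuclear depth was as low as 3701255 counts, and members under 10 counts in a RiboTag group (4 to 6 of 67) allow no statement on D1-D2 differences.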
